A study of Homo sapiens with 9 samples.

Results

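The S100 genes encode small calcium-binding proteins, and 10 of them were followed here across SKMEL28 cells, a human melanoma line, in which p16 alone or p16 and ATR had been knocked down. The members were S100A1, S100A2, S100A3, S100A4, S100A6, S100A10, S100A11, S100A13, S100A16 and S100B, found by their gene symbol as 10 of the 48162 genes of the deposited tables. A filter on low counts left 8 of the 10 among the 15776 genes tested, and S100A3 and S100A4 did not pass it. The study asked how the checkpoint kinase ATR acts on mTORC1 after loss of p16. RNA was sequenced from 3 groups of 3 libraries: shCont, with a lentiviral hairpin against GFP, shp16, with a hairpin against p16 (the product of CDKN2A), and shp16+shATR, with hairpins against p16 and against ATR and called the double knockdown below. All 3 groups were grown in 5% serum and selected in puromycin at 1 µg/ml for 3 days. Each group is a transduced pool of 1 cell line, the sources used here do not state which ATR hairpin was sequenced, and no source used here says that the libraries of a group came from separate cultures or infections. The study describes its LSS mRNA measurement, whose assay it does not name there, as technical replicates of a single experiment. Every p-value below therefore measures the spread between these libraries, which may be technical.

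S100 proteins pair into dimers, and each subunit carries 2 calcium-binding loops of the EF-hand type. Calcium opens a hydrophobic face that binds target proteins such as annexins and cytoskeletal proteins, and some members also leave the cell and act on surface receptors. S100B is a standard marker of the melanocyte lineage and of melanoma. Most S100A genes lie in a cluster on chromosome 1, together with genes of the epidermal differentiation program.

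Library totals ran from 17314662 to 23588174 counts. 2 libraries stood apart from their groups, those labelled shCont replicate 1 and shp16 replicate 1. Against the other libraries of its group, the first gave a mean chi-square per gene of 68.5 and 83.4, where the remaining shCont pair gave 5.15, and the second gave 37.9 and 37.2, where the remaining shp16 pair gave 1.94. The targeted genes bear on the first of them. ATR stood at 45.9 CPM (counts scaled to library size with TMM factors) in the library labelled shCont replicate 1. The other shCont libraries had 93.5 and 96.4, shp16 had 83.4 to 93.5 and the double knockdown had 39.9 to 41.1. In this gene, 1 control library thus lay near the ATR knockdown. For AHNAK, a gene no hairpin targeted, this library lay away from the double knockdown, at 696 CPM against 1428 to 1464. The other shCont libraries had 1402 and 1510 CPM of AHNAK. CDKN2A stood at 162, 112 and 103 CPM in shCont, between 78.1 and 99.9 in shp16 and between 82.4 and 90.0 in the double knockdown. Its log2 fold change in shp16 against shCont was −0.48 (SE 0.16, adjusted p = 0.0723), which did not pass 0.05, and it was −0.26 without the library labelled shCont replicate 1 and −0.16 without both libraries. Values without the former are therefore given for the members. The lineage markers fitted the label, with all 12 melanocyte genes among those tested and summed levels of 13703 to 15172 CPM in shCont, 8386 to 13503 in shp16 and 11303 to 13359 in the double knockdown.

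The promoters of the neighbouring genes S100A13, S100A1 and S100A16 are shown. S100A13 and S100A1 were lowest in shp16 and S100A16 was highest in the double knockdown, as described below. One further S100A13 promoter, which holds none of the marked words, is not printed. They are the RefSeq promoters of GRCh38.p14, 250 bases before to 50 bases after a transcript start, written 5′ to 3′ on the strand of the gene. RefSeq promoters were matched for 9 of the 10 members, with 13 entries, and S100B had none. Capitals mark 4 short words read on both strands, none of which contains another. The canonical E-box was searched as CACGTG. The core of the M-box, bound by the melanocyte factor MITF, was searched as CATGTG. The TATA box was searched as TATAAA, and the GC box, bound by SP1, as GGGCGG.
S100A13 promoter, chr1:153634312-153634611, minus strand: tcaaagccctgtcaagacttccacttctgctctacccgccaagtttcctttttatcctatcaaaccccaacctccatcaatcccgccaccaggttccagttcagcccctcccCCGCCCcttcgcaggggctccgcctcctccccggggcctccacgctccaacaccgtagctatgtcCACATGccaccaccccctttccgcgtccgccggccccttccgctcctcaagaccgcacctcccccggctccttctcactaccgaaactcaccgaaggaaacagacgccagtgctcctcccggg
S100A13 promoter, chr1:153627456-153627755, minus strand: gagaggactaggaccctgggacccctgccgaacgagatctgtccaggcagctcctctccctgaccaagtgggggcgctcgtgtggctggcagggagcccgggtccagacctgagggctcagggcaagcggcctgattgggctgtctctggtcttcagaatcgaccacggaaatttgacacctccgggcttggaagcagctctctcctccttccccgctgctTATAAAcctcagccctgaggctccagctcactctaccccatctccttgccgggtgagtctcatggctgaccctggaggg
S100A1 promoter, chr1:153628184-153628483, plus strand: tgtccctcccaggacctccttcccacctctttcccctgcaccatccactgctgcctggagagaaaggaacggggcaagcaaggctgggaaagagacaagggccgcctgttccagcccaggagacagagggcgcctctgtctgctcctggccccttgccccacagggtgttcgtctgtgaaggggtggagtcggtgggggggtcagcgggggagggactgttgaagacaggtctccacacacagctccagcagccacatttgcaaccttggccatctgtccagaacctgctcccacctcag
S100A16 promoter, chr1:153613088-153613387, minus strand: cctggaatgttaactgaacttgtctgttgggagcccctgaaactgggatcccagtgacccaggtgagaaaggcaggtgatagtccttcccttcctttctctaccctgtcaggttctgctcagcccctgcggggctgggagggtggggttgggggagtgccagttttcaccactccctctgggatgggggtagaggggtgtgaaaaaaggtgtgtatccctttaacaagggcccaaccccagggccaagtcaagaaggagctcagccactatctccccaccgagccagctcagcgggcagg
S100A16 promoter, chr1:153609306-153609605, minus strand: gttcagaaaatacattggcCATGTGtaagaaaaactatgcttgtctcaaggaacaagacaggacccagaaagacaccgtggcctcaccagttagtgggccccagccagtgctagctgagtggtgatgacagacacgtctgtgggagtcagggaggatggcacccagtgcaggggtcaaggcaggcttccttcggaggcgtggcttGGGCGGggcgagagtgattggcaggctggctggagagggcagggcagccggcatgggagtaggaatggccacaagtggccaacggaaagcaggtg

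The E-box was in 0 of the 13 member promoters and in 7.26% of all 35116 RefSeq promoters. The M-box core was in 2 of 13, 1 each of S100A13 and S100A16, against 11.1% of all. The TATA box was in 2 of 13, 1 each of S100A4 and S100A13, against 11.5%, and the GC box was in 6 of 13 against 45.0%. Such matches describe the letters of these windows, and binding was not measured. The coordinates that follow for genes are those of the deposited table, which are GRCh37, and are not interchangeable with the promoter coordinates.

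The levels per gene length (FPKM, mean of 9 libraries) fell into 3 tiers. S100B was highest at 510 FPKM, place 62 among all genes, followed by S100A11 at 309, S100A10 at 180 and S100A6 at 154. S100A13 at 30.5 FPKM, S100A16 at 8.26 and S100A1 at 1.93 made up the middle of the range. S100A2 at 0.528 FPKM, S100A4 at 0.252 and S100A3 at 0.246 were at or near background. S100A10 exceeded S100A6 in 8 of 9 libraries, S100A2 exceeded S100A4 in 8 of 9 and S100A4 exceeded S100A3 in 4 of 9, while every other neighbouring pair kept its order in 9 of 9. The spread of S100A4 and S100A3 therefore did not separate them. The 10 members together took 0.305% to 0.404% of the summed FPKM in shCont, 0.219% to 0.298% in shp16 and 0.322% to 0.357% in the double knockdown.

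**Figure D1:**
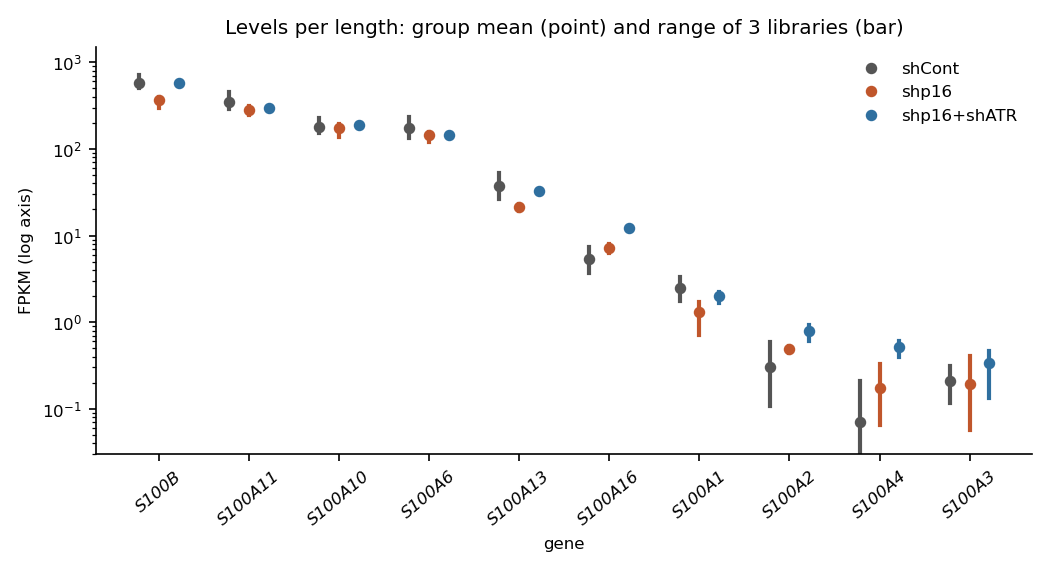
FPKM of the 10 S100 members on a log axis, ordered by their mean over 9 libraries, with the group mean as a point and the range of the 3 libraries of a group as a bar. S100B leads at a mean of 510 FPKM and S100A2, S100A4 and S100A3 lie under 1 FPKM in the mean, where the lower end of the S100A4 bar in shCont is a library at 0 drawn at the edge of the axis.

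In shp16 against shCont, 2 of the 8 tested members fell (S100B and S100A13) and 0 rose, beside 14.8% of all 15776 genes called in either direction. The median log2 fold change was −0.30 over the 8 members and −0.02 over all genes. The libraries of both groups did not overlap for 3 members, S100B, S100A13 and S100A1, beside 33.6% of all genes. When the double knockdown was set against shp16, 1 of 8 rose (S100B), beside 6.22% of all genes called. All 8 estimates were above 0, with a median of 0.63 against 0.00 over all genes, and 5 members did not overlap, S100B, S100A13, S100A16, S100A1 and S100A2, beside 37.7% of all genes. Against shCont it had 1 of 8 higher (S100A16), beside 23.6% of all genes called, with a median of −0.09 against −0.02 over all genes. The only member without overlap there was S100A16, beside 41.5% of all genes. The comparisons share groups, since shp16 enters the first and the second and shCont the first and the third, so a value particular to 1 group moves 2 of them. With upper-quartile scaling, the share of calls that were higher went from 48.8% to 38.5% in shp16 against shCont and from 43.8% to 54.2% in the double knockdown against shp16, and the counts of members called were 2, 1 and 1 as before.

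**Figure D2:**
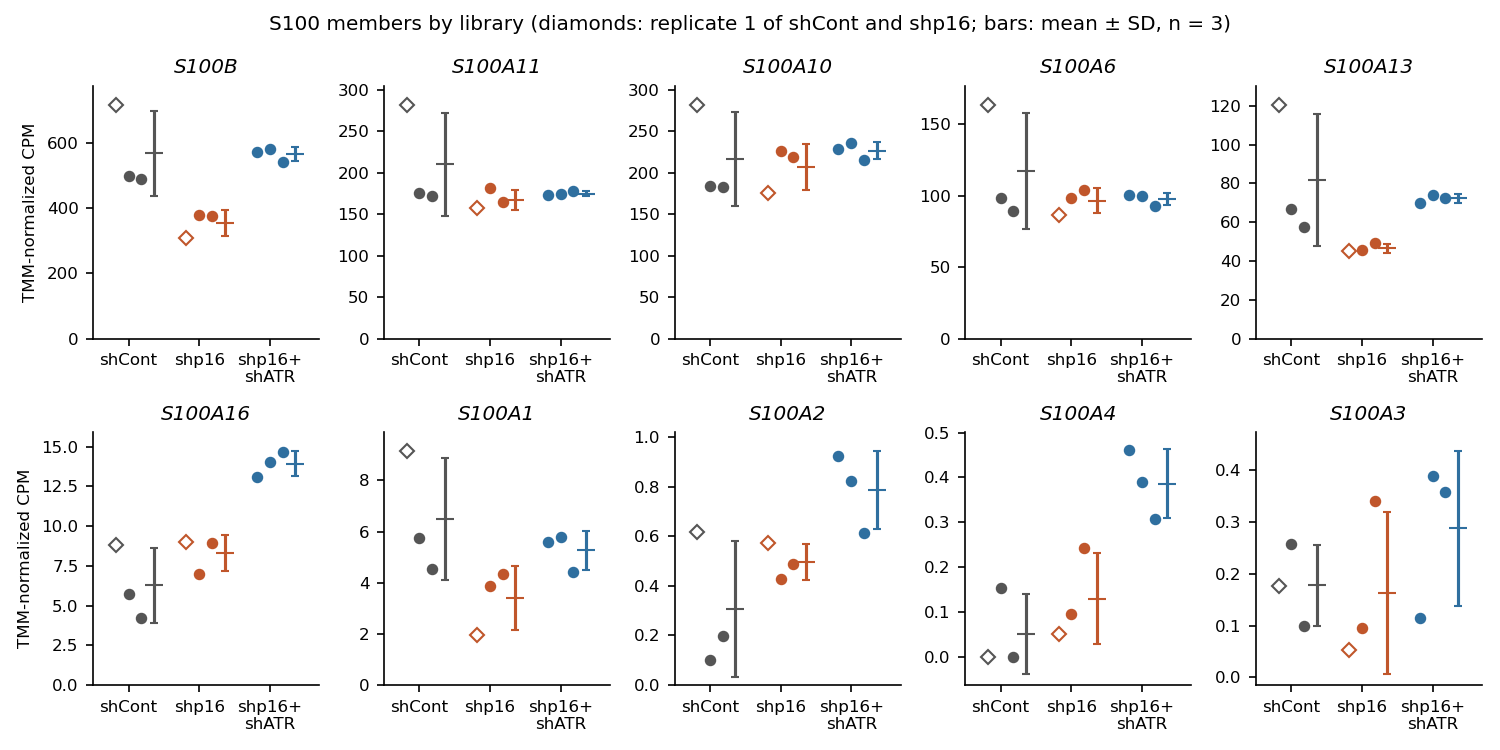
TMM-normalized CPM of each S100 member in the 9 libraries by group, each panel with its own linear axis, with the group mean and SD of 3 libraries beside the points. Diamonds are the libraries labelled replicate 1 of shCont and of shp16, and the shCont diamond is the highest shCont point for S100B (717 CPM), S100A13 (121 CPM), S100A11, S100A10, S100A6, S100A16, S100A1 and S100A2.

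S100B (ENSG00000160307, chromosome 21, minus strand, 48018875 to 48025121) encodes the S100 protein used in the clinic to follow melanoma. It stood at 717, 498 and 489 CPM in shCont, at 307, 380 and 375 CPM in shp16 and at 573, 582 and 540 CPM in the double knockdown. Each shp16 library lay below every library of both other groups, which overlapped with one another. S100B fell 1.60-fold in shp16 (log2 fold change −0.68, SE 0.15, edgeR quasi-likelihood, adjusted p = 0.0130) and was 1.60-fold higher in the double knockdown than in shp16 (log2 fold change 0.67, SE 0.15, adjusted p = 0.0254). Against shCont, the double knockdown gave a log2 fold change of −0.01 with a 95% interval of −0.34 to 0.33, which became 0.19 without the library labelled shCont replicate 1 (adjusted p = 0.144) and, called, 0.19 without both libraries that stood apart (adjusted p = 0.00461). In these bulk libraries less RNA per cell cannot be told apart from fewer cells of a type. Without the library labelled shCont replicate 1 the fall in shp16 was −0.48 (adjusted p = 0.0029, over 20 alternatives 2.40e-05 to 0.154), and without that labelled shp16 replicate 1 it was −0.58 and no longer called (adjusted p = 0.0511). The rise in the double knockdown against shp16 lost its call when any 1 of the 6 libraries compared was left out, with log2 fold changes of 0.58 to 0.73 and adjusted p of 0.0678 to 0.111, and over all 19 alternatives the adjusted p ran from 1.14e-07 to 0.111.

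**Figure D3:**
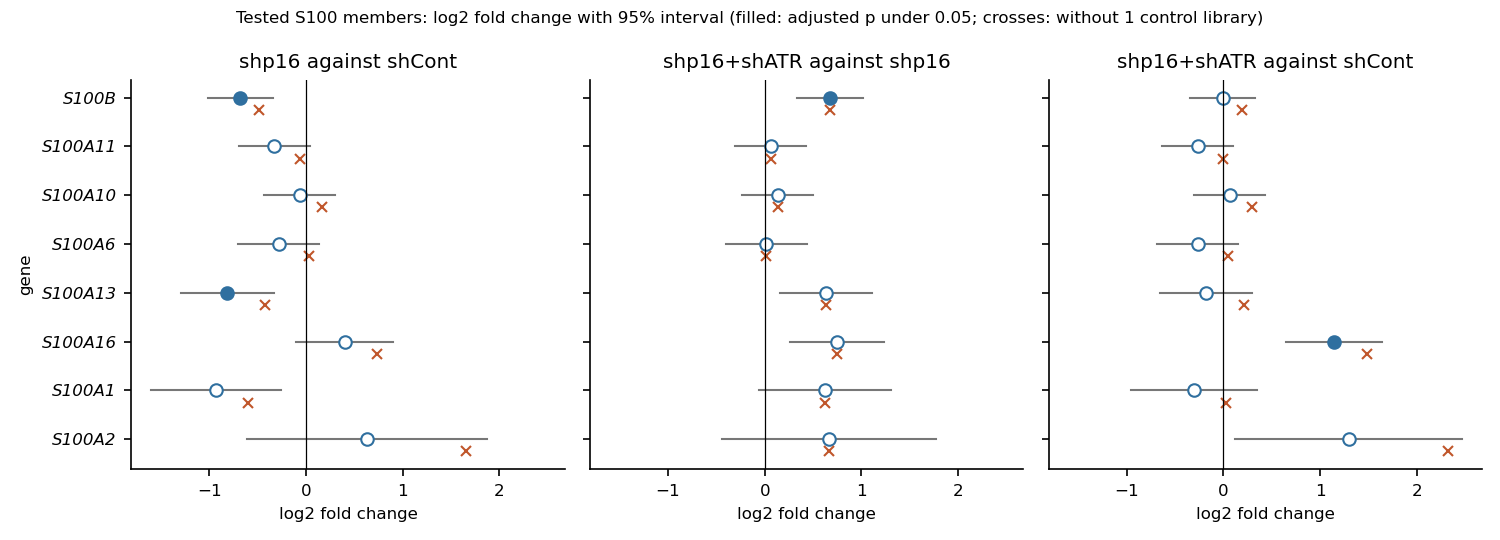
Log2 fold change of the 8 tested S100 members in each comparison, as a circle with its 95% interval, filled where the adjusted p was under 0.05. Crosses give the estimate without the library labelled shCont replicate 1, which shifts S100A13 from −0.81 to −0.43 in shp16 against shCont and S100A16 from 1.15 to 1.48 in the double knockdown against shCont.

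S100A13 (ENSG00000189171, chromosome 1, minus strand, 153591263 to 153606873), needed for the export of FGF1 by a route outside the endoplasmic reticulum, followed the groups in the order of S100B. Of its promoters printed above, 1 held the M-box core and 1 the TATA box. It stood at 121, 67.1 and 57.5 CPM in shCont, at 45.0, 45.5 and 49.2 CPM in shp16 and at 69.9, 74.3 and 72.8 CPM in the double knockdown. Every shp16 library was below every library of the other groups. S100A13 fell 1.76-fold in shp16 (log2 fold change −0.81, SE 0.22, adjusted p = 0.0287). It was at a log2 fold change of 0.64 in the double knockdown against shp16 (SE 0.22, adjusted p = 0.118), which did not pass, and at −0.18 against shCont (95% interval −0.65 to 0.30). Without the library labelled shCont replicate 1 these values were −0.43 (adjusted p = 0.0031) and 0.64 (adjusted p = 0.000142), both called, and the last turned to 0.21, which did not pass (adjusted p = 0.0714) but did without both libraries that stood apart (0.21, adjusted p = 0.0216), while over all alternatives the adjusted p ran from 1.47e-06 to 0.182 for the first and from 4.06e-06 to 0.293 for the second. Leaving out any 1 shp16 library ended the first call, with adjusted p of 0.0721 to 0.0986.

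S100A1 (ENSG00000160678, chromosome 1, plus strand, 153600402 to 153604513), known for regulating calcium handling in muscle through SERCA and the ryanodine receptor, lies wholly within S100A13 on the opposite strand, with 4112 bases shared. The strand setting of the counting is not given in the sources used here, so reads of both genes may not have been told apart. S100A1 stood at 9.15, 5.75 and 4.55 CPM in shCont, at 1.97, 3.89 and 4.34 CPM in shp16 and at 5.59, 5.80 and 4.41 CPM in the double knockdown. Its shp16 libraries lay below all others, and none of its comparisons passed the test: the log2 fold change was −0.93 in shp16 against shCont (SE 0.31, adjusted p = 0.0648), 0.63 in the double knockdown against shp16 (SE 0.31, adjusted p = 0.294) and −0.30 in the double knockdown against shCont (SE 0.30, adjusted p = 0.507). Leaving out the library labelled shCont replicate 1 brought the first to −0.60 and the last to 0.03, neither of them called. CHTOP, which shares 349 bases with S100A13 on the opposite strand, gave log2 fold changes of 0.00 (adjusted p = 1.00), 0.06 (adjusted p = 0.842) and 0.06 (adjusted p = 0.764) in the same order.

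FGF1, the growth factor that S100A13 carries out of the cell, was measured as one of 8 export partners and receptors, of which 7 were tested. It stood at 1.55, 2.11 and 1.35 CPM in shCont, 1.92, 1.52 and 1.36 CPM in shp16 and 3.63, 3.76 and 4.30 CPM in the double knockdown. All double-knockdown libraries were above all others. FGF1 rose in the double knockdown against shp16 (log2 fold change 1.28, SE 0.24, adjusted p = 0.0097) and against shCont (1.23, SE 0.24, adjusted p = 0.0033), and was at −0.06 in shp16 against shCont (SE 0.25, adjusted p = 0.907). It was the 1 called gene of this list in each of the former comparisons, beside 6.22% and 23.6% of all genes called. In shp16 against shCont 0 of the 7 were called by edgeR, 0 had an unadjusted p under 0.05 and 0 were called by DESeq2. SYT1, the synaptotagmin of the same export complex, did not pass the filter and had at most 1 count in any library. The receptor genes AGER (RAGE) and TLR4 lay between 0.993 and 1.25 CPM and between 2.28 and 2.74 CPM in the group means, with adjusted p of 0.418 or above in every comparison.

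S100A16 (ENSG00000188643, chromosome 1, minus strand, 153579362 to 153585621), a broadly expressed S100 protein, was highest in the double knockdown. It stood at 8.84, 5.75 and 4.20 CPM in shCont, at 8.99, 6.97 and 8.92 CPM in shp16 and at 13.1, 14.02 and 14.7 CPM in the double knockdown. The 3 double-knockdown libraries were above the 6 others, and shCont and shp16 overlapped. S100A16 rose 2.21-fold in the double knockdown against shCont (log2 fold change 1.15, SE 0.23, adjusted p = 0.00369), a call that held in 19 of 19 alternatives with values of 0.93 to 1.48 and adjusted p of 3.54e-08 to 0.0171. It was at 0.75 in the double knockdown against shp16 (SE 0.22, adjusted p = 0.0731) and at 0.40 in shp16 against shCont (SE 0.23, adjusted p = 0.278). Without the library labelled shCont replicate 1, these were 0.75 (adjusted p = 0.00298) and 0.73 (adjusted p = 0.00991), both past the threshold, where the alternatives ran from 0.000307 to 0.239 and from 0.00593 to 0.585.

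S100A2 (ENSG00000196754, chromosome 1, minus strand, 153533584 to 153540366), an S100 gene of epithelial cells, was counted on few reads. Its raw counts were 14, 2 and 4 in shCont, 11, 9 and 10 in shp16 and 16, 19 and 12 in the double knockdown. No comparison passed, with log2 fold changes of 0.63 (95% interval −0.61 to 1.87), 0.66 (−0.45 to 1.77) and 1.29 (0.12 to 2.47) in shp16 and then in the double knockdown against shp16 and against shCont. Without the library labelled shCont replicate 1, which held 14 of the 20 shCont counts, the first was 1.66, which did not pass (adjusted p = 0.0529), and the last was 2.32 (adjusted p = 0.0064, over the alternatives 0.00446 to 0.254). S100A16 and S100A2 varied together over the 9 libraries (Pearson r = 0.88 on log2 CPM), which is a description over libraries that share their groups and depth.

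S100A10, S100A11 and S100A6 are the abundant annexin partners among the S100A genes. S100A10 (p11, ENSG00000197747, chromosome 1, minus strand, 151955391 to 151966866) has EF-hands that no longer need calcium and forms a complex with annexin A2. It stood at 282, 185 and 183 CPM in shCont, 175, 227 and 219 CPM in shp16 and 229, 236 and 216 CPM in the double knockdown, and all 3 groups overlapped. Its log2 fold changes were −0.07 (95% interval −0.43 to 0.30), 0.13 (−0.23 to 0.50) and 0.07 (−0.30 to 0.43) in shp16 and then in the double knockdown against shp16 and against shCont. When the library labelled shCont replicate 1 was left out, the first turned to 0.16, and to 0.27 and called without both libraries that stood apart (adjusted p = 0.00115), and the last became 0.30 and passed (adjusted p = 0.0369, over the alternatives 0.000155 to 0.924).

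S100A11 (ENSG00000163191, chromosome 1, minus strand, 152004982 to 152020383), the partner of annexin A1, stood at 282, 176 and 172 CPM in shCont, 157, 181 and 164 CPM in shp16 and 173, 174 and 178 CPM in the double knockdown. Outside the library labelled shCont replicate 1 all its values lay between 157 and 181 CPM. Its log2 fold changes were −0.33 (95% interval −0.70 to 0.04), 0.06 (−0.31 to 0.43) and −0.27 (−0.63 to 0.10) in the same order, and none passed. The first was −0.06 and the last 0.00057 without that library. A processed copy in the table, S100A11P1, held 8 counts over the 9 libraries.

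S100A6 (calcyclin, ENSG00000197956, chromosome 1, minus strand, 153507075 to 153508720) stood at 164, 98.5 and 89.5 CPM in shCont, 86.9, 98.8 and 104 CPM in shp16 and 100.3, 99.9 and 92.7 CPM in the double knockdown. Its groups overlapped, with log2 fold changes of −0.28 (95% interval −0.70 to 0.14), 0.02 (−0.40 to 0.44) and −0.27 (−0.68 to 0.15), none of which passed. The first and the last turned to 0.03 and 0.05 without the library labelled shCont replicate 1. S100A6 and S100A11 had a Pearson r of 0.95 over the 9 libraries, among which the library labelled shCont replicate 1 was the highest for both.

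Of the 6 genes of annexins and AHNAK, all tested, 1 fell in shp16 and 2 fell in the double knockdown against shCont, and 0 rose. The shares of all genes called in these comparisons were 14.8% and 23.6%. ANXA1, the annexin bound by S100A11, stood at 270, 235 and 240 CPM in shCont, 179, 190 and 195 CPM in shp16 and 183, 183 and 182 CPM in the double knockdown. It fell in shp16 (log2 fold change −0.40, SE 0.10, adjusted p = 0.0192) and in the double knockdown (−0.44, SE 0.10, adjusted p = 0.0071) against shCont, with no overlap in either case. ANXA5 fell in the double knockdown against shCont (−0.33, SE 0.10, adjusted p = 0.0398). ANXA2, the partner of S100A10, was at 0.03 (adjusted p = 0.871) and 0.08 (adjusted p = 0.634) in shp16 and the double knockdown against shCont. Without both libraries that stood apart, ANXA2 was called higher in both, at 0.14 (adjusted p = 0.0463) and 0.18 (adjusted p = 0.0045). Between the double knockdown and shp16 0 of 6 were called by edgeR, 1 had an unadjusted p under 0.05 and 1 was called by DESeq2.

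S100A4 (ENSG00000196154, chromosome 1, minus strand, 153516089 to 153522612), a metastasis-associated protein that binds non-muscle myosin IIA, and S100A3 (ENSG00000188015, 153519805 to 153521848 on the same strand), a gene of the hair cuticle, were nearly silent. S100A3 lies inside the span of S100A4, with 2044 bases in common on 1 strand, so their few reads may not have been told apart. S100A4 had 0, 3 and 0 counts in shCont, 1, 2 and 5 in shp16 and 8, 9 and 6 in the double knockdown. S100A3 had 4, 5 and 2 counts in shCont, 1, 2 and 7 in shp16 and 2, 9 and 7 in the double knockdown. The S100A4 counts were higher in each double-knockdown library than in any other library. With no filter on low counts, neither gene passed in any comparison, the nearest being S100A4 in the double knockdown against shCont (adjusted p = 0.0544).

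Of the 14 intracellular targets, 11 were tested. PPP5C, the phosphatase bound by S100 proteins, fell in the double knockdown against shCont (log2 fold change −0.51, SE 0.11, adjusted p = 0.0070), with all 3 libraries (55.2 to 58.5 CPM) below the shCont libraries (72.2 to 93.4 CPM). It was the 1 call in the list over the comparisons. Of all genes, 14.8% were called in shp16 against shCont. The double knockdown had 6.22% called against shp16 and 23.6% against shCont. In shp16 against shCont 0 of 11 were called by edgeR, 3 had an unadjusted p under 0.05 and 0 were called by DESeq2, and in the double knockdown against shp16 the numbers were 0, 1 and 0. MYH9, the target of S100A4, MDM2, bound by S100B among others, and CACYBP, the calcyclin-binding protein, had adjusted p between 0.104 and 0.906. Without the library labelled shCont replicate 1, MDM2 was called lower in the double knockdown. Its values were −0.42 against shp16 (adjusted p = 0.0063) and −0.36 against shCont (adjusted p = 0.0165). MYH9 and CACYBP were not called there. Without both libraries that stood apart, MYH9 was called higher in the double knockdown, at 0.26 against shp16 and 0.39 against shCont.

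Other genes share the EF-hand fold with S100 proteins. Of 25 such genes 21 were tested: 5 fell and 0 rose in shp16 against shCont, 1 rose and 2 fell in the double knockdown against shp16, and 1 rose and 6 fell in the double knockdown against shCont. The shares of all genes called were 14.8%, 6.22% and 23.6%, and 4, 15 and 4 of the 21 estimates were above 0. HPCAL1, a neuronal calcium sensor, was lowest in shp16, as S100B was, at 176, 140 and 155 CPM in shCont, 86.3, 65.1 and 69.8 CPM in shp16 and 125, 125 and 131 CPM in the double knockdown. It fell in shp16 (log2 fold change −1.09, SE 0.13, adjusted p = 0.000208) and rose in the double knockdown against shp16 (0.79, SE 0.13, adjusted p = 0.0049), with no overlap between the groups compared. Unlike those of S100B, its double-knockdown libraries all lay below the shCont libraries (−0.31, adjusted p = 0.105, not called). The other falls in shp16 were RCN1 (−0.73) and NUCB1 (−0.62), calcium-binding proteins of the secretory pathway, CAPN2 (−0.51), the large subunit of m-calpain, and NUCB2 (−0.47). Each of these also had its lowest group mean in shp16. RCN1 and CAPN2 had all double-knockdown libraries above the shp16 libraries, at 0.35 and 0.24 (adjusted p = 0.0748 and 0.180, not called). Without the library labelled shCont replicate 1 both were called (adjusted p = 0.0052 and 0.0224).

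MCFD2, a cargo receptor subunit for clotting factors, fell in the double knockdown against shp16 (−0.74, SE 0.13, adjusted p = 0.0071) and against shCont (−0.95, SE 0.13, adjusted p = 0.000378). EFHD2, an actin-binding protein, fell in the double knockdown against shp16 (−0.63, SE 0.14, adjusted p = 0.0220). Against shCont, the double knockdown was also lower for CALM3, a calmodulin gene (−0.55), for CAPN1, the large subunit of µ-calpain (−0.51), and for NUCB2 (−0.45). Without the library labelled shCont replicate 1, CALM3 was at −0.34 and NUCB1 in shp16 at −0.37, and both stayed past the threshold. In shp16 against shCont, EFHD2 (0.41, adjusted p = 0.0012) and CETN2 (0.37, adjusted p = 0.0464) then became called higher. MCFD2 (−0.33, adjusted p = 0.0183) became called lower.

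**Figure D4:**
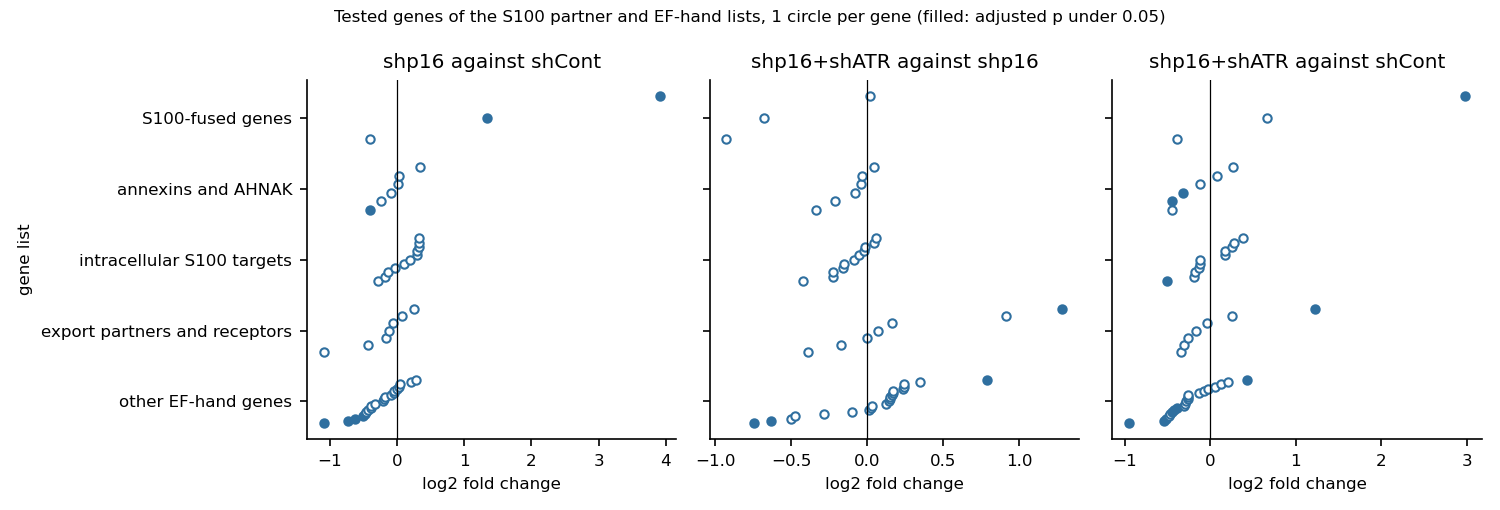
Log2 fold change of the tested genes of 5 lists of S100 partners and relatives in each comparison, 1 circle per gene, filled where the adjusted p was under 0.05, with an axis of its own in each panel. The filled EF-hand circles in shp16 against shCont all lie below 0, and the filled circle of the export list in both comparisons with the double knockdown is FGF1, at 1.28 and 1.23.

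The remaining S100 genes were not tested, since 0 of 11 passed the filter. Their summed level was 0.0514 to 0.250 CPM in shCont, 0.0519 to 3.22 in shp16 and 0.476 to 0.865 in the double knockdown. The highest sum was the library labelled shp16 replicate 2, which held 11 counts of S100A7, 21 of S100A8 and 31 of S100A9, keratinocyte and myeloid S100 genes that had 0 to 5 counts in every other library. Of the 7 S100-fused genes, which join an S100 domain to long repeats and are made in the upper epidermis, 3 were tested. FLG (filaggrin) had 29, 82 and 96 counts in shCont, 166, 200 and 156 in shp16 and 98, 148 and 78 in the double knockdown. It rose in shp16 (log2 fold change 1.33, SE 0.36, adjusted p = 0.0279), and was at 0.92 without the library labelled shCont replicate 1 (adjusted p = 0.0057). FLG2, at 3, 0 and 2 counts in shCont, 30, 18 and 30 in shp16 and 14, 23 and 4 in the double knockdown, rose in both against shCont (adjusted p = 0.0043 and 0.0169). Of the 3 tested, 0 were called by edgeR between the double knockdown and shp16, 0 had an unadjusted p under 0.05 and 0 were called by DESeq2.

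Some keratinocyte markers moved with the same comparisons. Of 5 markers 4 were tested, and 3 rose in shp16 and in the double knockdown against shCont. The shares of all genes called were 14.8% and 23.6%. KRT5 had 0 counts in every shCont library, 39 to 63 in shp16 and 7 to 39 in the double knockdown. KRT14 had 0, 3 and 0 counts in shCont, 43 to 57 in shp16 and 22 to 53 in the double knockdown. KRT1 had 0 counts in shCont, 42 to 207 in shp16 and 26 to 96 in the double knockdown, with its highest count in the library labelled shp16 replicate 2. KRT10 overlapped between the groups, at means of 25.7, 27.8 and 29.4 CPM in shCont, shp16 and the double knockdown. TP63 had at most 7 counts in any library. Most of the summed level of the list was KRT10. That sum was 20.5 to 32.3 CPM in shCont, 31.3 to 49.9 in shp16 and 30.5 to 41.5 in the double knockdown. The part of these reads in the S100A2, S100A16, FLG and FLG2 values was not tested.

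Markers of the other cell types were low. Of 5 fibroblast markers 4 were tested and 2 rose in the double knockdown against shCont, COL3A1 with 3, 0 and 0 counts in shCont and 16, 12 and 4 in the double knockdown, and DCN with 2, 6 and 3 against 9, 21 and 19. The share of all genes called in that comparison was 23.6%. The DCN call was lost without the library labelled shCont replicate 1 (adjusted p = 0.0574). The summed fibroblast level was 32.6 to 42.8 CPM in shCont, 27.3 to 45.9 in shp16 and 30.8 to 33.5 in the double knockdown, most of it LUM. Among leukocyte markers PTPRC and CD3E had 0 counts in every library, and the sum was between 0.173 and 1.10 CPM. The endothelial sum was between 2.75 and 5.61 CPM. Of the 12 melanocyte markers, 2 rose and 1 fell in shp16, 1 rose and 3 fell in the double knockdown against shp16, and 2 rose and 3 fell in the double knockdown against shCont. The shares of all genes called were 14.8%, 6.22% and 23.6% in the same order. TYRP1, a melanin-synthesis enzyme, fell in each (−0.43, −0.88 and −1.31), and ERBB3, a receptor of the lineage, rose in each (0.44, 0.60 and 1.04). SLC45A2 and RAB38, a transporter and a trafficking factor of melanosomes, fell in the double knockdown against shp16 (−0.49 and −0.48) and against shCont (−0.62 and −0.57), and EDNRB, the endothelin receptor, rose in shp16 against shCont (0.52) and in the double knockdown against shCont (0.36). The group means of TYRP1 were 134 CPM in shCont, 99.1 in shp16 and 53.9 in the double knockdown, an order unlike that of S100B. PMEL, TYR and GPR143 had their lowest mean in shp16, as S100B did, at 9014, 6287 and 7343 CPM for PMEL, 330, 290 and 313 CPM for TYR and 221, 196 and 229 CPM for GPR143, and none of their comparisons passed. The library labelled shp16 replicate 1 held 3258 CPM of PMEL, where the other shp16 libraries held 7839 and 7763. For TYR it held 245 CPM, where the others held 310 and 314. No other marker of the list had its lowest mean in shp16. MITF (685, 727 and 625 CPM) and SOX10 (877, 892 and 840 CPM) had their highest mean there.

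The called genes around the chromosome 1 members went in both directions. Within 200 kb of these members 14 other genes were tested, of which 2 rose and 3 fell in shp16 against shCont and 2 rose and 2 fell in the double knockdown against shCont. The shares of all genes called were 14.8% and 23.6%. For the double knockdown against shp16, 0 of the 14 were called by edgeR, 3 had an unadjusted p under 0.05 and 1 was called by DESeq2. INTS3, an Integrator subunit, stood at 249 CPM in shCont, 143 in shp16 and 142 in the double knockdown in the group means, and fell in both against shCont (−0.80 and −0.81). THEM4, a thioesterase, fell in shp16 (−0.67), as did SLC27A3, an acyl-CoA synthetase (−0.58). Both had all double-knockdown libraries above the shp16 libraries, at 0.30 and 0.26, and neither passed (adjusted p = 0.115 and 0.286). Without the library labelled shCont replicate 1 both passed (adjusted p = 0.0063 and 0.0110). SNAPIN, not called in shp16 against shCont, also had all double-knockdown libraries above the shp16 libraries (0.38, adjusted p = 0.127). It too passed without that library (adjusted p = 0.0033). The median over the 14 genes was 0.0064 in the double knockdown against shp16. TDRKH, a factor of the piRNA pathway, rose in shp16 against shCont (0.53, adjusted p = 0.0178). It stayed called without the library labelled shCont replicate 1 (0.42, adjusted p = 0.0110) and without both libraries that stood apart (0.42). In the double knockdown against shCont it was higher at 0.39 (adjusted p = 0.0452). Without the library labelled shCont replicate 1 that value was 0.29 and did not pass (adjusted p = 0.0526). Without both libraries it was 0.28 and called (adjusted p = 0.0318).

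Around S100B 5 genes were tested, and 2 rose in the double knockdown against shCont: DSTNP1 (1.09), a processed copy of DSTN whose reads may not be its own, and PRMT2 (0.35), an arginine methyltransferase named after its values were seen. The share of all genes called in that comparison was 23.6%. In shp16 against shCont 0 of the 5 were called by edgeR, 1 had an unadjusted p under 0.05 and 0 were called by DESeq2, and in the double knockdown against shp16 the numbers were 0, 2 and 0.

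**Figure D5:**
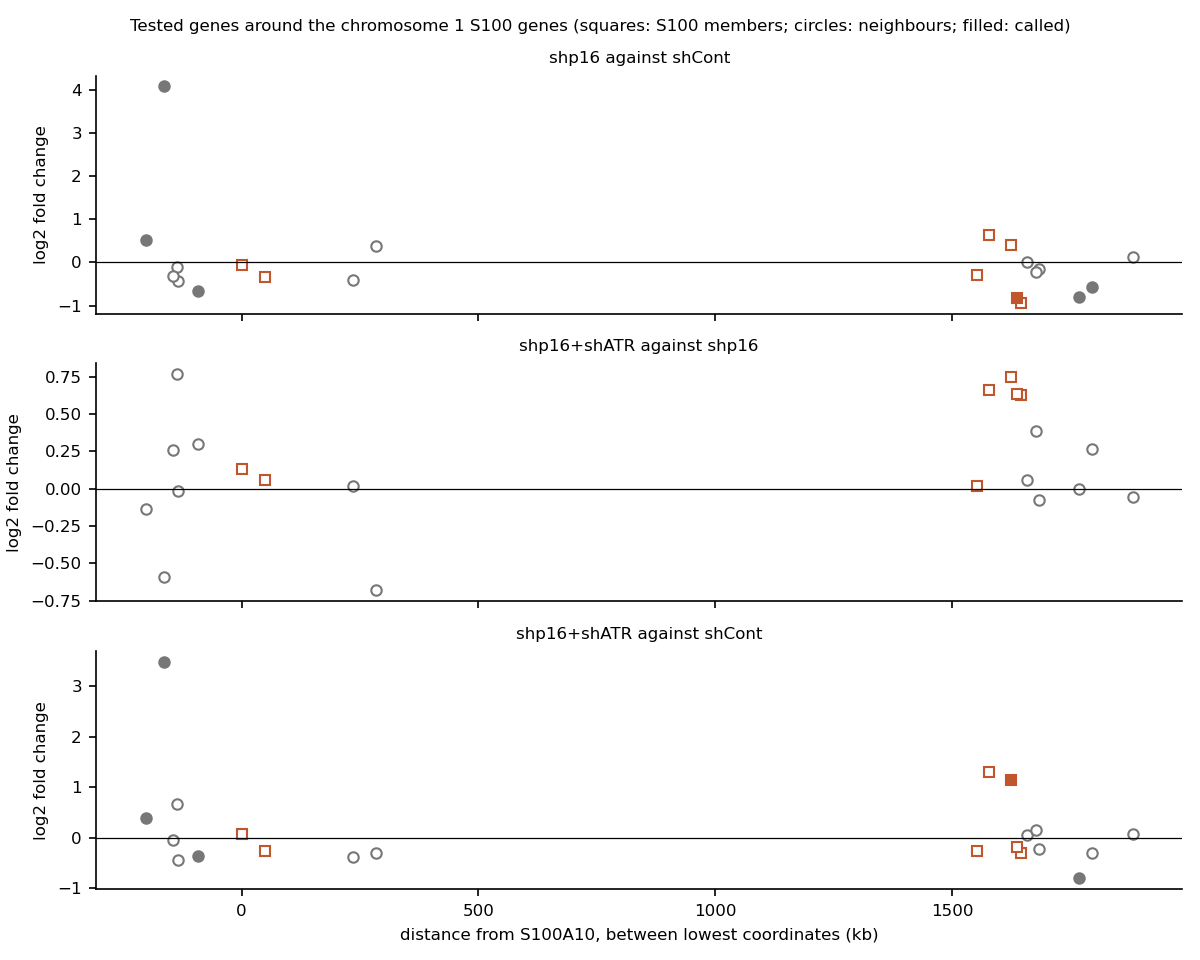
Log2 fold change of the S100 members on chromosome 1 (squares) and of the other tested genes within 200 kb of one (circles) against the distance in kb from S100A10, for each comparison, filled where called. The S100 genes fall into 2 places on the chromosome, S100A10 and S100A11 at the left and the others at the right, and in the double knockdown against shp16 no square or circle is filled.

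Among 10736 tested genes with a mean of at least 5 CPM, the genes whose log2 CPM was most like that of S100B over the 9 libraries were DUSP14 (Pearson r = 0.979), UCN2 (0.978), PGRMC2, EXTL1 and ID1 (0.976 each). UCN2, a peptide hormone gene, had a mean of 297 CPM in shCont, 191 in shp16 and 269 in the double knockdown. ID1, an inhibitor of bHLH factors, had 30.7, 18.2 and 35.8 CPM in the same groups. Among the members, S100A13 (r = 0.94) and S100A1 (r = 0.91) were the most like S100B, and S100A2 (0.24) and S100A16 (0.27) the least. These values describe 9 libraries that share 3 groups, and the library labelled shCont replicate 1 was the highest or among the highest for many of these genes.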

How the data were processed

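RNA of 9 SKMEL28 libraries was sequenced by Novogene. The authors deposited raw read counts per gene and FPKM values. From the counts, gene lengths and library totals, the FPKM could be recomputed to within a relative difference of 4.22e-07. The submitters' processing notes name STAR 2.6.1, DESeq2 2 and the build GRCh38, but only 288 of 45341 gene starts matched GRCh38, and the coordinates of the table are those of GRCh37. The double knockdown (shp16+shATR) has 1 name over its 3 count columns, so its libraries are given in table order.

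Counts were compared with edgeR 4.0.16 in R 4.3.3 (TMM, filterByExpr, quasi-likelihood test, all 9 libraries, 1 coefficient per group), with Benjamini-Hochberg adjustment over all 15776 genes tested at 0.05. The biological coefficient of variation was 0.149, and 0.0903 without the library labelled shCont replicate 1. SE is that of the log2 fold change, and intervals are at 95%. Fold changes are between fitted group means. The procedure was tested on simulated data. Python 3.11.15, pandas 2.3.3, numpy 2.4.6 and scipy 1.17.1 did the rest.

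Alternatives were DESeq2 1.42.0, other scalings and filters, fits of 2 groups, a replicate block, limma 3.58.1 on log2 FPKM, an adjusted p of 0.01 and each library left out. Leaving out both libraries that stood apart was added after seeing the data. The members and gene lists were chosen with earlier results of these data known. Named genes were the members, at most 4 called genes per list and comparison with the largest change, at most 4 called neighbours within 200 kb, the 5 genes most like S100B, CDKN2A and ATR. Others were named after their values were seen. The values of some genes within these rules are not reported here. Annotation was taken from the table and RefSeq (GRCh38.p14 promoters).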

Additional observations from a re-analysis of the deposited data

How the results depend on the processing

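S100A16 in the double knockdown against shCont was called in all 19 alternatives, and the other called members were not. Over the 20 alternatives of shp16 against shCont, S100B was called in 16 and S100A13 in 12, and S100B was called in 12 of 19 in the double knockdown against shp16, each with 1 direction. In the following, values are log2 fold changes unless they are counts, and the cause of a change was not tested. Leaving out 1 library at a time gave 1344 to 4192 called genes and 0 to 3 called members in shp16 against shCont, 292 to 3223 and 0 to 3 in the double knockdown against shp16, and 2354 to 5395 and 1 to 3 in the double knockdown against shCont, the highest counts of genes without the library labelled shCont replicate 1. The members whose call or sign changed ran, in shp16 against shCont, from −1.14 to −0.60 (S100A1), −0.44 to 0.032 (S100A6), −0.17 to 0.16 (S100A10), −1.01 to −0.43 (S100A13), 0.18 to 0.73 (S100A16) and −0.78 to −0.48 (S100B). In the double knockdown against shp16 they ran from −0.056 to 0.069 (S100A6), 0.61 to 0.67 (S100A13), 0.63 to 0.81 (S100A16) and 0.58 to 0.73 (S100B). In the double knockdown against shCont they ran from −0.50 to 0.028 (S100A1), 0.91 to 2.32 (S100A2), −0.43 to 0.050 (S100A6), −0.043 to 0.30 (S100A10), −0.39 to 0.00057 (S100A11), −0.38 to 0.21 (S100A13) and −0.11 to 0.19 (S100B). Where a group was left with 2 libraries, the fit pooled the spread with the other groups.

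Without both libraries that stood apart, 5264, 4304 and 7130 genes and 4, 3 and 5 members were called in shp16, and in the double knockdown against shp16 and against shCont. The fits called S100B and S100A13 in shp16 (−0.40 for S100A13), where S100A1 was at −0.32, and S100B in the double knockdown against shp16 (0.57). In shp16 against shCont, S100A16 (0.67) became called, S100A10 (0.27) changed sign and became called, and S100A6 (0.11) changed sign. In the double knockdown against shp16, S100A13 (0.61) and S100A16 (0.80) became called and S100A6 (−0.061) changed sign. In the double knockdown against shCont, S100A2 (2.32) and S100A10 (0.29) became called, S100A13 (0.21) and S100B (0.19) changed sign and became called, and S100A1 (0.027) and S100A6 (0.047) changed sign. A fit of only the groups compared called 1186 genes and 0 members in shp16 against shCont, losing S100A13 (−0.81) and S100B (−0.68), and 2878 genes and 3 members in the double knockdown against shp16, adding S100A13 (0.63) and S100A16 (0.75). DESeq2 called 1508 genes and 3 members in the double knockdown against shp16, with S100A13 (0.64) and S100A16 (0.76), added S100A1 (−0.92) in shp16 against shCont and put S100B at 0.0087 in the double knockdown against shCont. With no filter on low counts, S100A13 (0.62) and S100A16 (0.73) were called in the double knockdown against shp16, 3 members in all, and S100A1 (−0.91) in shp16 against shCont. With at least 10 counts in every library S100B was at 0.0034 in the double knockdown against shCont. Limma on log2 FPKM called 1 member in shp16 against shCont, losing S100A13 (−0.72 with 1 added, −0.74 with 0.1 added), and put S100B at 0.013 in the double knockdown against shCont with either. At an adjusted p of 0.01, 994, 309 and 1974 genes were called, and 0, 0 and 1 members.

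The replicate numbers of the labels are not stated to pair the libraries. The correlations of same-numbered deviations ran from −0.34 to 0.32, and not every library correlated best with its own number. These deviations were taken around means of 3 libraries, and 2 libraries stood apart, so the correlations cannot decide whether libraries were paired. With a replicate block, edgeR on shCont and shp16 called 423 genes and 0 members, with S100A13 at −0.74 and S100B at −0.66, and limma on log2 FPKM called 1186 and 441 genes and 0 and 0 members in shp16 and in the double knockdown against shp16, with S100A13 at −0.72 and S100B at −0.67 and 0.68, and 0.013 in the double knockdown against shCont. The edgeR block was not run with the double knockdown, whose count columns carry no replicate numbers of their own, and the limma block used the FPKM columns, which do. S100A2, S100A3 and S100A4 are limited by depth, at most 19 counts in a library.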
